A study of Mus musculus with 2 samples.

Results

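The Mir17 to Mir92 cluster is a run of 6 miRNA hairpins, Mir17, Mir18, Mir19a, Mir20a, Mir19b-1 and Mir92-1, cut from 1 transcript, Mir17hg. The members were taken by Ensembl identifier from the same-strand count of each file, and all 6 were found among 1973 annotated miRNA genes. The libraries came from mouse embryos of the B6NCrl strain at embryonic day 13.5, from which the facial prominences were taken, with males and females pooled. Both are biological replicates, numbered 1 and 2, of this single group, with separate biosamples under 1 donor entry, and RNA shorter than 30 bases was sequenced. There is no second condition, so the data give levels in reads of this tissue and their spread between 2 libraries. Different hairpins are compared by their reads, and how evenly library preparation captured each sequence was not tested. Agreement between the 2 libraries and the SDs do not cover this. A level is given in CPM, the counts of a gene per 1000000 counts on the strand of any miRNA gene.

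The facial prominences grow and fuse to form the upper and lower face, the nose and the palate. Mir17hg is switched on by MYC and E2F factors in dividing cells, and the miRNAs of the cluster repress inhibitors of growth and promoters of cell death. In mice, loss of the cluster causes orofacial clefts, and loss of the related Mir106b to Mir25 cluster in addition makes them more severe. In humans, heterozygous loss of MIR17HG causes a form of Feingold syndrome, with a small head, short stature and digit defects. A miRNA finds its targets mainly through its seed, bases 2 to 8, so hairpins with the same seed are grouped into a family.

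The 6 hairpins carry 4 seeds, which is why the mature sequence of the arm usually loaded is shown for each, in transcript order, as RNA with the seed in capitals (RefSeq, GRCm38.p6, plus strand of chromosome 14).
miR-17-5p of Mir17: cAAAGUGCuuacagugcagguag
miR-18a-5p of Mir18: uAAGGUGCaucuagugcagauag
miR-19a-3p of Mir19a: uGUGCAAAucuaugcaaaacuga
miR-20a-5p of Mir20a: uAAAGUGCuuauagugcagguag
miR-19b-3p of Mir19b-1: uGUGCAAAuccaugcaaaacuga
miR-92a-3p of Mir92-1: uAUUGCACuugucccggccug

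Mir17 and Mir20a share 1 seed, Mir19a and Mir19b-1 share another, and Mir18 and Mir92-1 each carry their own. Counted from 1 at the 5′ end, miR-20a-5p differs from miR-17-5p by C1U and C12U, and miR-19b-3p differs from miR-19a-3p by U11C. The seed of Mir18 differs from that of Mir17 by A4G alone within bases 2 to 8. The loaded arm is the 5′ arm in Mir17, Mir18 and Mir20a and the 3′ arm in Mir19a, Mir19b-1 and Mir92-1. The deposited counts are per hairpin and hold reads of both arms.

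Mir17hg is a noncoding RNA of 2 exons on chromosome 14, plus strand, at chr14:115042879-115046727 (GRCm38, GENCODE M21). All 6 hairpins lie in exon 2, within 836 bases from 115043671 to 115044506. Mir17 runs from 115043671 to 115043754, Mir18 from 115043851 to 115043946 and Mir19a from 115044000 to 115044081. Mir20a follows from 115044157 to 115044263, Mir19b-1 from 115044305 to 115044391 and Mir92-1 from 115044427 to 115044506. Gaps between neighbouring hairpins measured 35 to 96 bases, and hairpins measured 80 to 107 bases. Predicted folding energies were between -38.7 kcal/mol for Mir19a and -29.2 kcal/mol for Mir18, whose hairpin was the least stable of the 6 by this measure, also per base. GC content was alike among the hairpins, with 43.7% in Mir19b-1 at the low end and 47.5% in Mir92-1 at the high end.

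Counts on the strand of a miRNA gene summed to 4562135 for replicate 1 and 5771249 for replicate 2, and 360 genes had at least 10 counts in both. Reads with several places in the genome, which no gene received, were 30.7% and 31.0% of all reads. The facial label was checked against marker miRNAs. All 7 epithelial genes were detected and held 6.35% of counts in replicate 1 and 6.33% in replicate 2, and all 8 mesenchyme and cartilage genes held 6.60% and 7.09%. Endothelial Mir126a held 2.58% and 2.39%. Genes of red blood cells (3 of 3 detected) held 0.0101% and 0.0160%, those of white blood cells (3 of 4 analysed) held 0.0560% and 0.0550%, and the liver gene Mir122 held 0.00495% and 0.0109%. Of 8 neural genes analysed, Mir124a-1, Mir124a-3 and Mir9-2 were at 0, and the list held 0.0553% and 0.0565%. The mature sequences of the Mir124a and Mir9 genes each occur at several loci, so reads of them can leave the unique counts. The same can hold for Mir199a-1 and Mir199a-2 of the mesenchyme and cartilage list. The other genes of the lists were not searched for this. No conclusion on the label is drawn from the neural values, and the shares of the lists are not compared with each other. The cluster is also active in developing blood cells, and the part of any cell type in its levels was not tested. In whole tissue, fewer cells of a type and less RNA per cell cannot be told apart.

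The cluster held 5.80% of all miRNA gene counts in replicate 1 (95% Wilson interval 5.78 to 5.82%) and 5.96% in replicate 2 (5.94 to 5.98%), a mean of 5.88 ± 0.118% (SD, n = 2). The 6 hairpins contributed very unequally. Mir17 alone made up 61.9 ± 1.29% of the cluster's counts and Mir20a 22.8 ± 1.78%, so the hairpins with the Mir17 seed gave 84.8 ± 0.485% of them. Mir18 gave 9.22 ± 0.0568%, Mir92-1 gave 5.86 ± 0.395%, and the hairpins with the Mir19 seed gave 0.154 ± 0.0329%. All these shares are of uniquely placed reads, counted per hairpin with both arms, so they are shares of hairpins and not of seeds. Reads of the mature sequences that Mir92-1 and Mir19b-1 share with other hairpins are left out, and the SDs do not cover that loss. All 6 hairpins had 0 counts on the opposite strand in both libraries.

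Mir17, whose seed represses cell cycle inhibitors and TGF-beta receptors, had 166153 counts in replicate 1 and 209928 in replicate 2, which are 36420.0 and 36375 CPM (mean 36397 ± 32.0, SD, n = 2). These levels placed it at rank 7 and rank 8 of the miRNA genes. Mir20a, which shares the seed, had 57100 and 82957 counts, or 12516 and 14374 CPM, a mean of 13445 ± 1314 CPM (SD, n = 2). It was the second of the cluster in both libraries, at rank 22 and rank 21. Mir17 exceeded Mir20a by 2.91-fold in replicate 1 and 2.53-fold in replicate 2.

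Mir18, known for damping TGF-beta signalling, had 24480 and 31580 counts, or 5366 and 5472 CPM (mean 5419 ± 75). Its ranks were 38 and 37. Mir17 was 6.79-fold and 6.65-fold above it, a ratio that varied little between the libraries.

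Mir92-1, the last hairpin, known for restraining the pro-apoptotic protein Bim and the growth of vessels, had 16244 and 19217 counts, or 3561 and 3330 CPM (mean 3445 ± 163). It was the fourth of the cluster and took ranks 50 and 54. Mir18 exceeded it by 1.51-fold in replicate 1 and 1.64-fold in replicate 2. These folds leave out reads of the Mir92-1 mature sequence that also match Mir92-2. With such reads the order of this pair could turn.

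The Mir19 hairpins, known in mouse lymphoma as the main growth-promoting members of the cluster, were far below the rest in uniquely placed reads. Mir19a had 384 and 374 counts, which are 84.2 CPM in replicate 1 and 64.8 CPM in replicate 2 (mean 74.5 ± 13.7). Mir92-1, next above it in uniquely placed reads, was 42.3-fold and 51.4-fold higher. Mir19b-1 had 85 and 76 counts, or 18.6 and 13.2 CPM (mean 15.9 ± 3.86). Mir19a exceeded it by 4.52-fold and 4.92-fold in uniquely placed reads. The Mir19b-1 mature sequence is shared with Mir19b-2, so these folds could change with all reads. Mir19a took ranks 201 and 213, and Mir19b-1 took ranks 268 and 280.

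The order Mir17, Mir20a, Mir18, Mir92-1, Mir19a, Mir19b-1 was the same in both libraries, and the ranges of neighbours did not overlap at any of its 5 steps. With 2 libraries of 1 group, no test of these steps was made. The order of levels does not follow the order of hairpins, since Mir20a, the fourth hairpin, came ahead of Mir18, the second hairpin, and the last hairpin, Mir92-1, came ahead of Mir19a and Mir19b-1. The 3 hairpins whose 5′ arm is loaded were the 3 highest, between 5419 and 36397 CPM, and held 94.0 ± 0.428% of the cluster's counts. The 3 whose 3′ arm is loaded lay between 15.9 and 3445 CPM. This split of 6 hairpins was seen in the data and carries no test. It rests on uniquely placed reads and needs Mir18 above Mir92-1, whose reads were counted only in part because its mature sequence is shared with another hairpin. Mir19b-1 was likewise counted in part. The places of Mir92-1 and Mir19b-1 in the order of all reads, and those of hairpins that they could pass, are therefore not known.

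**Figure D1:**
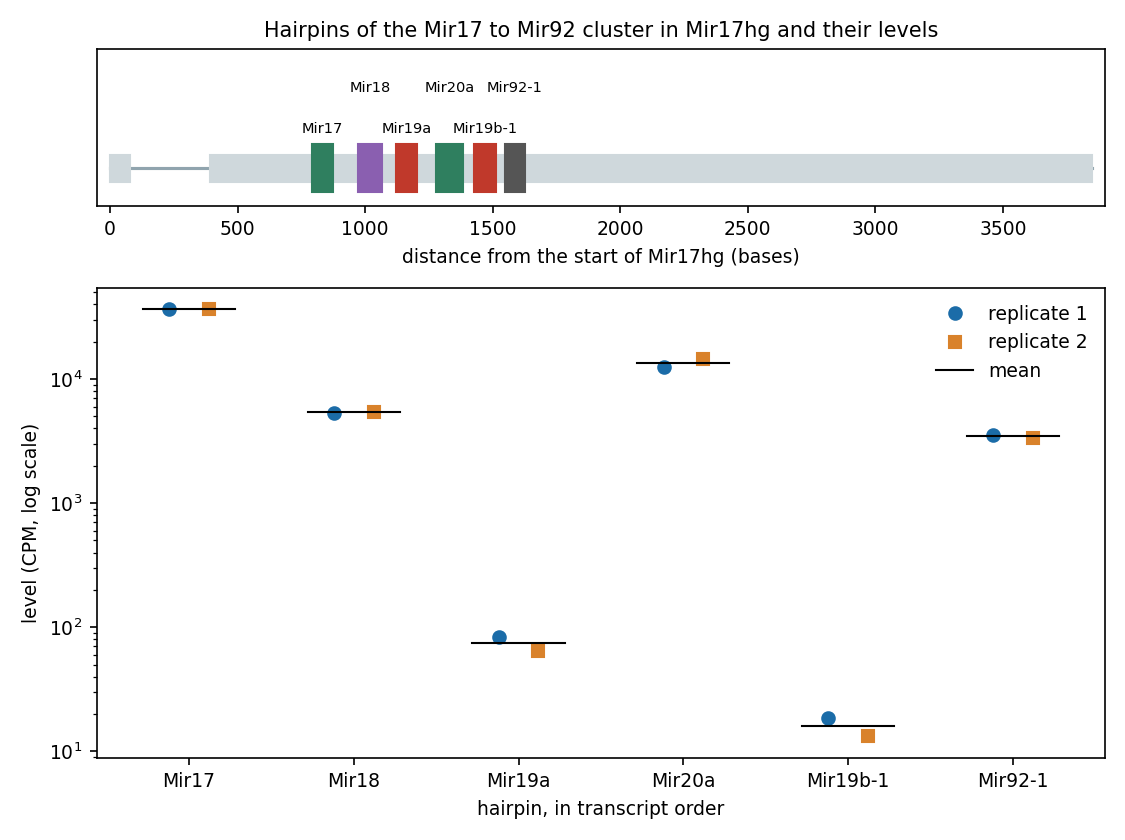
The upper panel maps the 6 hairpins (coloured by seed: green Mir17 seed, purple Mir18, red Mir19, dark grey Mir92) on the 2 exons of Mir17hg (light grey), in bases from its start. The lower panel plots the level of each hairpin in CPM on a log scale for each library, with a line at the mean: Mir17 averages 36397 CPM and Mir20a 13445 CPM, while Mir19a averages 74.5 CPM and Mir19b-1 averages 15.9 CPM.

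The counts hold uniquely placed reads only, so the sequences decide which reads could be counted. RefSeq gave 11 mature sequences for the 6 hairpins, and they were searched in 1005 mouse hairpins. Of these, 9 occurred in 1 hairpin and 2 occurred in 2 hairpins. The same numbers were found with the first 18 bases alone. The 2 shared sequences are miR-19b-3p, which Mir19b-1 shares with Mir19b-2, and miR-92a-3p, which Mir92-1 shares with Mir92-2, both partners being on chromosome X. Places outside annotated hairpins were not searched.

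The stretches that the partners share are given in lower case, to mark where a read becomes unique among hairpins; the capitals are the first bases on either side that differ between the partners (RefSeq hairpins, GRCm38.p6).
Mir19b-1, chr14:115044355-115044381, plus strand: UgcugugcaaauccaugcaaaacugaC
Mir19b-2, chrX:52741990-52742016, minus strand: GgcugugcaaauccaugcaaaacugaU
Mir92-1, chr14:115044474-115044497, plus strand: GguauugcacuugucccggccugU
Mir92-2, chrX:52741853-52741876, minus strand: AguauugcacuugucccggccugA

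In both pairs the partners share 0 bases after the end of the mature sequence, so a read that ends there matches both hairpins, and one templated base more matches only 1 of them. The mature sequence is 23 bases long for miR-19b-3p and 21 for miR-92a-3p. Mir92-1 still had 16244 and 19217 uniquely placed counts, against 612 and 626 for Mir92-2, a 26.5-fold and 30.7-fold difference. Mir19b-1 had 85 and 76, against 16 and 28 for Mir19b-2. The levels of Mir19b-1 and Mir92-1 leave out reads of the shared stretch, so these reads were counted only in part. Whether a last base not copied from the genome placed reads of 1 partner at the other was not tested. Mir19a carries no exactly shared mature sequence in the search. With 1 mismatch allowed, its mature sequence also occurred in Mir19b-1 and Mir19b-2, and that of Mir17 also occurred in Mir106a. Whether the authors' alignment allowed mismatches is not given in the sources used here, and its part in the low Mir19a count was not tested.

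Among the tested miRNA genes the cluster stood high at its median, although Mir19a (mean 74.5 CPM) and Mir19b-1 (mean 15.9 CPM) lay below the tested genes' median of 113 CPM. The median of the 6 members was 12.08 on the log2 CPM scale, against 6.82 over the 360 tested genes. A palate list of 14 genes, drawn from miRNAs studied in palate and facial development, gave a local scale, and it held 17.5% of counts in replicate 1 and 15.6% in replicate 2. It includes Mir106b and Mir25 of a related cluster. Its 3 highest genes by mean level were Mir23b (65347 and 48622 CPM), Mir214 of mesenchyme (26825 and 24589 CPM) and cartilage Mir140 (18603 and 22710 CPM), although in replicate 1 alone the epithelial gene Mir203 (22575 CPM) stood above Mir140. The lowest gene of the list was muscle-linked Mir133b (13.2 and 11.1 CPM). By mean level, Mir17 lay below 1 gene of that list and above 13. Mir20a lay above 9 of them, Mir18 above 7 and Mir92-1 above 5, while Mir19a and Mir19b-1 each lay above 1.

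**Figure D2:**
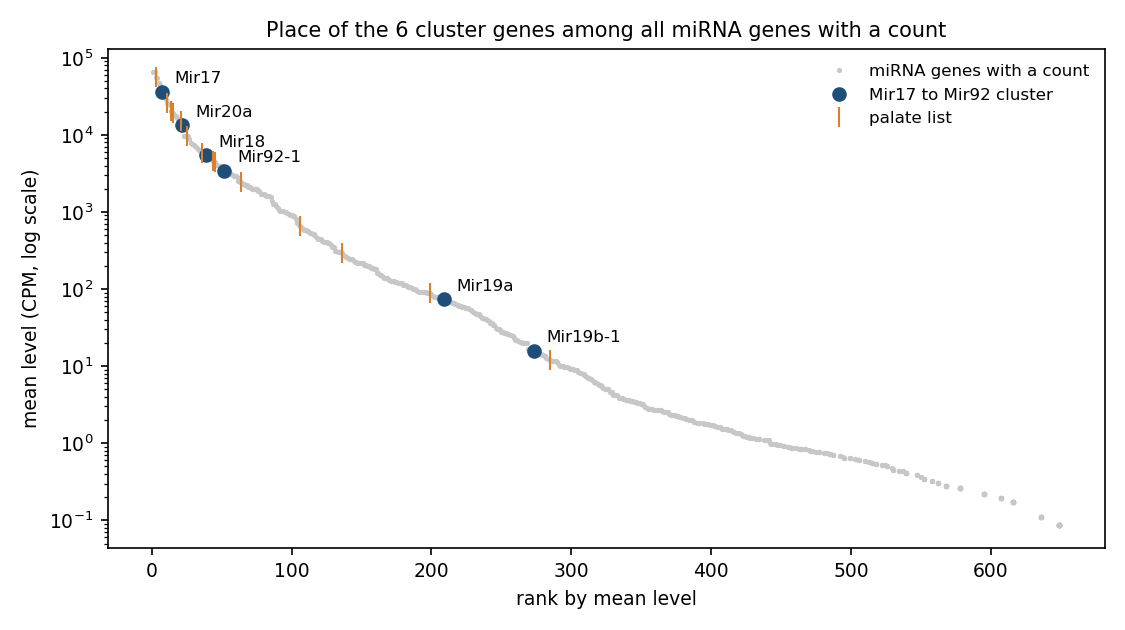
Mean level in CPM (log scale) against rank for every miRNA gene with a count, with the 6 cluster genes as blue points and the 14 genes of the palate list as orange ticks. Mir17, Mir20a, Mir18 and Mir92-1 lie among the first 52 genes, while Mir19a lies at rank 209 and Mir19b-1 at rank 273.

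The genes nearest to each member in level over the 2 libraries were read off as a description, by distance in log2 CPM. Mir17 lay nearest to Mir130a (distance 0.23) and Mir100 (0.24), and Mir20a to the epithelial genes Mir205 (0.33) and Mir429 (0.37). Mir18 lay nearest to Mir423 (0.06) and Mir30a (0.12), and Mir92-1 to Mir369 (0.12) and Mir382 (0.12), both on chromosome 12. Mir19a lay nearest to Mir679 (0.05) and Mir760 (0.16), and Mir19b-1 to Mir30c-2 (0.14) and Mir8114 (0.18).

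The genome holds 2 related clusters, which arose by duplication. The Mir106b to Mir25 cluster lies in the replication gene Mcm7 on chromosome 5 and carries Mir106b, Mir93 and Mir25. The Mir106a to Mir363 cluster on chromosome X carries Mir106a, Mir18b, Mir20b, Mir19b-2, Mir92-2 and Mir363. The Mir17 to Mir92 cluster had 57965 CPM in replicate 1 and 59629 CPM in replicate 2, the Mir106b to Mir25 cluster 23598 and 29392 CPM, and the Mir106a to Mir363 cluster 943 and 728 CPM. The Mir17 to Mir92 sum was thus 2.46-fold and 2.03-fold above that of Mir106b to Mir25, and 61.5-fold and 82.0-fold above that of Mir106a to Mir363. The ranges of the 3 sums did not overlap. No test was made with 2 libraries of 1 group, and the sums leave out reads with several places.

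The related hairpins repeat the 4 seeds, and their loaded arms can be compared with those of the cluster. The loaded arms of Mir19b-2 and Mir92-2 are identical to those of Mir19b-1 and Mir92-1 and are not repeated. The others are given, again as RNA with the seed in capitals (RefSeq, GRCm38.p6, minus strand of chromosomes 5 and X).
miR-106b-5p of Mir106b, chr5: uAAAGUGCugacagugcagau
miR-93-5p of Mir93, chr5: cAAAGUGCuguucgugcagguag
miR-25-3p of Mir25, chr5: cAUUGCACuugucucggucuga
miR-106a-5p of Mir106a, chrX: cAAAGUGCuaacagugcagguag
miR-20b-5p of Mir20b, chrX: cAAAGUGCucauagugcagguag
miR-18b-5p of Mir18b, chrX: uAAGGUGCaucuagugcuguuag
miR-363-3p of Mir363, chrX: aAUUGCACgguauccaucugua

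The Mir106b to Mir25 cluster has no hairpin with the Mir18 or the Mir19 seed. Relative to miR-17-5p, miR-93-5p carries U10G, A11U, C12U and A13C, all 3′ of the seed. Relative to miR-18a-5p, miR-18b-5p carries A18U and A20U, and relative to miR-92a-3p, miR-25-3p carries U1C, C14U and C18U. Each of the 7 sequences listed for the related hairpins occurred in 1 hairpin in the search.

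The Mir17 seed family held 7.62 ± 0.515% of all miRNA gene counts, and the cluster gave 65.5 ± 2.75% of the family. Mir17 gave 50.2% of it in replicate 1 and 45.5% in replicate 2, and Mir20a gave 17.6 ± 0.533% on average. The other large contributors were Mir93, with 19.0% and 23.1%, and Mir106b, with 12.7% and 12.8%. Mir93 stood at 13819 and 18447 CPM, and Mir17 exceeded it by 2.64-fold and 1.97-fold. Mir106b, at 9213 and 10215 CPM, lay below Mir20a by 1.36-fold and 1.41-fold. Mir106a, whose mature sequence differs from that of Mir17 by U10A alone, had 416 and 281 CPM, so Mir17 exceeded it by 87.5-fold and 129-fold. Mir20b had 192 and 170.3 CPM. Mir6383, which has the same seed, had 0 counts in both libraries, where 3 counts would be 0.658 and 0.520 CPM.

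**Figure D3:**
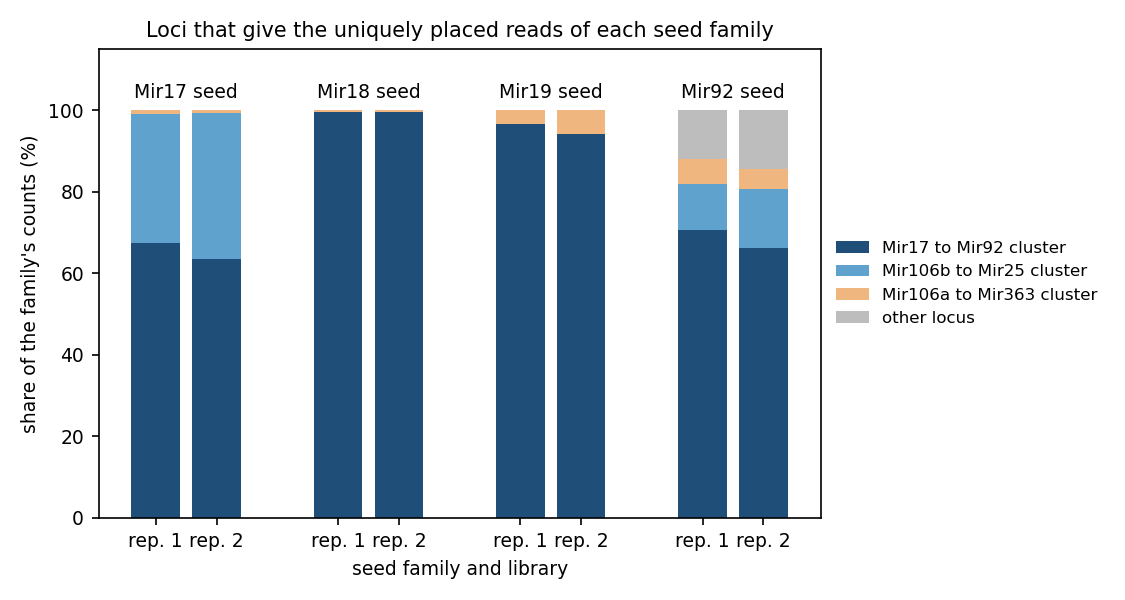
Stacked bars give the percent of each seed family's counts that came from each cluster, for the 2 libraries side by side. The Mir17 to Mir92 cluster gives 67.4% and 63.5% of the Mir17 seed family and 70.6% and 66.2% of the Mir92 seed family, and 94.1% or more of the other 2.

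The counts of the Mir18 seed family came almost wholly from the cluster. Mir18 held 99.6 ± 0.0250% of its family, and Mir18b of chromosome X had 20.6 and 19.1 CPM, with Mir18 being 260-fold and 287-fold above it. In the Mir19 seed family, which had only 485 and 478 counts, the cluster held 95.4 ± 1.81%, and Mir19a gave 78.7 ± 0.659% of the family. These shares are of uniquely placed reads: reads that end within the stretch shared by Mir19b-1 and Mir19b-2 are missing from the family total, so the part of Mir19a among all Mir19 seed reads is not known. Mir19b-2 had 3.51 and 4.85 CPM.

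The Mir92 seed family was spread over the most loci with counts, although the cluster's mean share was lower still in the Mir17 seed family. Reads of the mature sequence shared by Mir92-1 and Mir92-2 are missing from this family's counts too, and the intervals do not cover that loss. Mir92-1 held 70.6% of its family in replicate 1 (95% Wilson interval 70.0 to 71.2%) and 66.2% in replicate 2 (65.7 to 66.7%), a mean of 68.4 ± 3.14%. Mir25 gave 11.2% and 14.5%, Mir92b of chromosome 3 gave 8.13% and 9.40%, and Mir32 of chromosome 4 gave 3.84% and 4.88%. Mir363 and Mir92-2 of chromosome X each gave under 4%, with 3.50% and 2.86% for Mir363 and 2.66% and 2.16% for Mir92-2. Mir367, of the pluripotent Mir302 cluster, had 0 counts. The family as a whole held 0.504% of miRNA gene counts in replicate 1 and 0.503% in replicate 2.

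The 2 libraries were then compared gene by gene to see which members differed by more than the counting error of reads. PCR reads are not independent molecules, so the p-values can be too small. Of the 6 members 4 passed the test, against 55.0% of all 360 tested genes, so the share of members is near that of the table. Higher in replicate 1 were Mir19a and Mir92-1 (27.2% of tested genes were called in that direction), and higher in replicate 2 were Mir20a and Mir18 (27.8%). The test compares these libraries and not conditions, and its p-values come from the exact binomial test with Benjamini-Hochberg adjustment over all tested genes.

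With its 84.2 against 64.8 CPM, Mir19a was 1.30-fold higher in replicate 1 (log2 ratio 0.38, adjusted p = 0.000827, exact binomial test). Mir20a was 1.15-fold higher in replicate 2 (log2 ratio of replicate 1 to replicate 2 of -0.20, adjusted p = 5.54e-142). Mir92-1 was 1.07-fold higher in replicate 1 (log2 ratio 0.10, adjusted p = 1.05e-09). These p-values follow the depth, and the differences they mark are small, as with Mir18, which passed with a 1.02-fold difference (log2 ratio -0.03, adjusted p = 0.0444, and 0.000103 to 0.0400 under the other settings tried). Mir19b-1 had the widest ratio, 1.42-fold, on under 100 counts a library and did not pass (adjusted p = 0.0562). Mir17 differed by 1.00-fold (log2 ratio 0.0023, adjusted p = 0.698) and ranked 357 of 360 by the size of its ratio. The sign of the Mir17 ratio turned with the scaling of the libraries, which shifts the ratios of all genes by the same amount and so says nothing particular to Mir17. With count minimums of 1 and 100 it passed the exact binomial test as higher in replicate 2, at log2 ratios of -0.022 (adjusted p = 1.75e-05) and -0.014 (adjusted p = 0.00682). With DESeq2 size factors the log2 ratio was -0.0059 and did not pass (adjusted p = 0.299), and with total counts or the unstranded column it stayed above 0 and did not pass (adjusted p = 0.779 and 0.946).

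The median size of the log2 ratio was 0.15 over the 6 members, against 0.24 over all tested genes. The members did not move together between the libraries. In the Mir106b to Mir25 cluster all 3 genes passed as higher in replicate 2, against 27.8% of all tested genes called in that direction. Their log2 ratios were -0.15 for Mir106b, -0.36 for Mir25 and -0.42 for Mir93. In the Mir106a to Mir363 cluster 4 of 6 genes passed as higher in replicate 1, against 27.2% of all tested genes, and the other 2 did not pass. The 4 log2 ratios were 0.57 for Mir106a, 0.31 for Mir92-2, 0.30 for Mir363 and 0.18 for Mir20b. In the palate list 11 of 14 genes passed, against the 55.0% of all tested genes, with 6 higher in replicate 1 and 5 higher in replicate 2. Marker lists also held genes that differed between the libraries, read against the same 55.0% and, by direction, 27.2% and 27.8%. Median levels were 1896 CPM for mesenchyme and cartilage and 6993 CPM for epithelium, against 113 CPM over all tested genes. At high counts the test passes small differences. All 8 of the mesenchyme and cartilage list passed, 2 being higher in replicate 1 and 6 in replicate 2, and all 7 of the epithelial list passed, with 2 and 5 in the same directions. Red blood cell genes held 0.0101% of counts in replicate 1 and 0.0160% in replicate 2. The part of these markers in the members' differences was not tested.

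**Figure D4:**
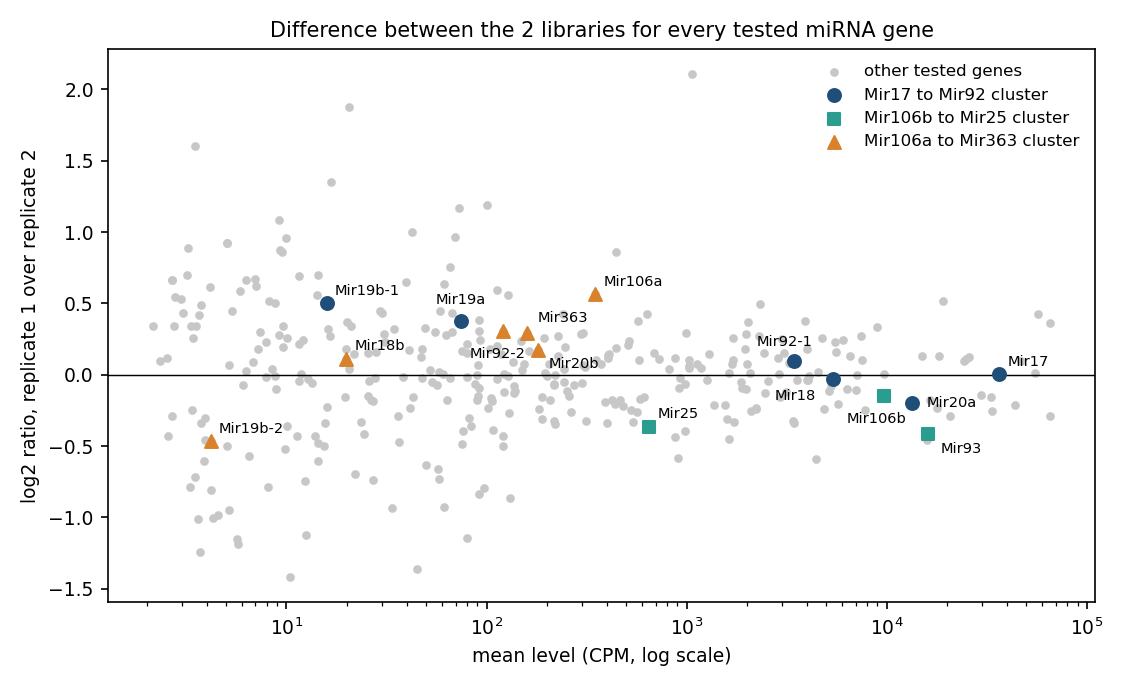
Log2 ratio of replicate 1 to replicate 2 against mean level in CPM (log scale) for the 360 tested miRNA genes, with the 3 related clusters marked. Mir17, Mir18 and Mir92-1 lie within 0.10 of zero, Mir20a lies at -0.20, and the low-count Mir19a and Mir19b-1 lie at 0.38 and 0.50.

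To show what the 4 seeds read, letters complementary to them were looked for in the longest annotated 3′ untranslated region of 9 genes, 5 known from palate or facial development and 4 known as targets in growth control (GENCODE M21, GRCm38). The letters were GCACTTT for the Mir17 seed, GCACCTT for Mir18, TTTGCAC for Mir19 and GTGCAAT for Mir92, on the strand of the transcript only. GCACTTT and TTTGCAC can overlap in the letters GCAC. A match is a description of sequence, and no transcript levels were measured in these libraries. GCACTTT occurred in 6 of the 9 regions, against 11.8% of 21020 such regions of any length, TTTGCAC in 3 against 11.5%, GCACCTT in 1 against 7.81% and GTGCAAT in 1 against 6.56%. The genes were chosen with their known roles in view, so these counts support nothing further.

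The matches in genes of face and palate are shown with matches in Bcl2l11 and Tgfbr2, as DNA of the transcript strand with the match in capitals.
Tbx3, Mir17 seed, chr5:119683147-119683171, plus strand: tcaaatctgccagtGCACTTTgtta
Osr1, Mir17 seed, chr12:9581399-9581423, plus strand: ttgtattgcgactgGCACTTTatgc
Fgf10, Mir19 seed, chr13:118790242-118790266, plus strand: ctcagttgacttaaTTTGCACttct
Bcl2l11, Mir92 seed, chr2:128162435-128162459, plus strand: ttgccactgtacctGTGCAATactg
Tgfbr2, Mir17 seed, chr9:116090070-116090094, minus strand: agccaataacgtttGCACTTTatta

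Tbx3, a T-box factor of the palate, and Osr1, a factor of craniofacial mesenchyme, each held 1 match to the Mir17 seed. Hairpins with this seed had the most counts of the cluster. Regions of like length, within 20%, held it in 14.3% of cases for Tbx3 and 7.05% for Osr1. Fgf10, a growth signal of the palatal shelves, held 1 match to the Mir19 seed, against 20.8% of regions of like length. Bcl2l11, which encodes the pro-apoptotic protein Bim, held 2 matches to the Mir17 seed, 2 to Mir92 and 1 to Mir19, and 30.7%, 17.6% and 29.2% of regions of its length held each. In Tgfbr2, the TGF-beta type II receptor, the Mir17 and Mir19 matches overlap, and 41.8% and 36.0% of regions of its length held each set of letters. The Tbx1 and Shox2 regions held none of the 4 sets of letters.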

How the data were processed

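Small RNA libraries of 2 biological replicates of 1 group were analysed. The authors deposited whole-number counts of reads per miRNA gene, made on mm10 with GENCODE M4, per the deposited description files. How reads were trimmed and aligned is not stated in the labels or files. The files have no header, so the same-strand column was recognised from the layout. Reads with several places stood in a class of their own and stayed out of the totals. Names came from GENCODE M21 on GRCm38, which matched 1894 of 1973 gene identifiers, and sequences from RefSeq (GRCm38.p6).

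CPM are counts per 1000000 same-strand gene counts. Genes with at least 10 counts in both libraries were compared between libraries with an exact binomial test (two-sided, given the gene's summed counts), TMM sizes (edgeR 4.0.16, R 4.3.3) and Benjamini-Hochberg adjustment at 0.05 over all tested genes. A quasi-likelihood test has no residual degrees of freedom with 1 library a side. The procedure was checked on simulated data. The simulated counts held counting error alone, so the check does not cover other spread between libraries. Hairpins were folded with RNAfold 2.7.2. Intervals and floors cover counting error only, since PCR reads without molecular identifiers are not independent molecules. Alternatives tried were size factors of DESeq2 1.42.0, the unstranded counts, other totals and count minimums, a pseudocount of 5 in place of 0.5, searches with 18 bases, and each library alone.

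Named genes were the 6 members, their paralogs and seed relatives, the 2 tested genes nearest to each member in level, and the 3 highest and the lowest of a palate list. Members and lists were chosen with earlier results of these data known. The target genes whose untranslated regions were searched were added later.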

Additional observations from a re-analysis of the deposited data

Results flagged for a closer look

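Reads with several places in the genome lie outside the counts used here. There were 3179149 such reads in replicate 1 and 4058237 in replicate 2, and the files give them no gene. Reads of the mature sequences that Mir19b-1 shares with Mir19b-2 and Mir92-1 with Mir92-2 fall in this class, so the share of it that belongs to the cluster is not known.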

How the results depend on the processing

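The summed share of the 6 members, 5.88% of same-strand gene counts, became 5.72% with the unstranded column, 2.59% with all reads of a file as the total, and 6.29% with the most abundant gene left out of the total. These follow from the larger or smaller totals. With TMM or DESeq2 scaling it moved by less than 1 SD. That was nearly fixed in advance, since both scalings shift the 2 libraries in opposite directions and leave their mean almost unchanged. Each library alone gave 5.80 to 5.96%, which says nothing about stability, since with 2 libraries each lies within 1 SD of the mean by construction. The 4 family shares and the 2 ratios to the paralog clusters were tried only with each library alone and with the unstranded column, which nearly equals the same-strand one at these genes, so their stability was not tested. The number of genes that differ between libraries was 178 to 209 under 5 alternatives, against 198. The number tested changed as well, so the called share depends on the count minimum. It was 202 of 552 genes at a minimum of 1 and 178 of 259 at 100, against 198 of 360. The log2 ratio of Mir17 was 0.0023 and changed sign with DESeq2 size factors (-0.0059), a count minimum of 1 (-0.022, adjusted p = 1.75e-05) and a count minimum of 100 (-0.014, adjusted p = 0.00682) because each of these settings shifts the ratios of all members by the same amount. The 26 remaining alternatives for the members' ratios, those of Mir17 with total counts and the unstranded column included, kept their direction and their side of the threshold. Of the single members' levels, 31 alternatives stayed within 1 SD and 11 moved. The 31 include each library alone and TMM and DESeq2 scaling, which for the reasons given could hardly leave that range. Mir19b-1 was not tested at the count minimum of 100. All 12 nearest genes were kept with a pseudocount of 5. Mir19a rests on 384 and 374 counts and Mir19b-1 on 85 and 76, which limits their precision. No paired analysis was possible because there is 1 group.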
